A study of Mus musculus with 47 samples.

Results

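Ependymal cells line the ventricles and the central canal of the brain, and their tufts of motile cilia move the cerebrospinal fluid. A set of 10 genes that mark these cells or build their cilia, Foxj1, Rsph1, Tekt1, Spag16, Dnah11, Dynlrb2, Ak7, Ccdc153, Tmem212 and Rarres2, were followed in RNA-seq of mouse brainstem and hippocampus. The 10 genes were taken by matching the symbols to the Ensembl identifiers of the raw count tables, which found 10 of 33139 gene rows in brainstem and 10 of 31751 in hippocampus. The genes were selected on earlier results of these data, the mean levels of ependymal markers on each diet. The diet values of these genes are therefore given as a description, and nothing is read from the diet terms of the fitted model.

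A motile cilium is built on microtubule doublets. Dynein arms on the doublets generate the beat, radial spokes and a central pair regulate it, and tektins form filaments inside the doublet wall. FOXJ1 and the RFX factors are the transcription factors known for switching on the genes of motile cilia. In the brain such cilia are carried mainly by ependymal cells, and choroid plexus epithelium also carries cilia and develops from the same ventricular lining.

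All mice were males of the C57BL/6 strain. TG mice were homozygous for a human transgene under the Thy1 promoter, which drives expression in neurons. WT mice came from the same outcross and were kept as a parallel colony. Each genotype received standard diet (SD) or high-fat diet (HFD) from soon after weaning until about a year of age, which gave the groups WT_SD, WT_HFD, TG_SD and TG_HFD. Brainstem, dissected as medulla, gave 5 WT_SD libraries and 6 of each other group, and hippocampus, with all subfields, gave 6 libraries of each group. Each library was labelled as a separate sample, and p-values measure the spread between these samples.

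The 47 libraries held between 10020784 and 17328447 counted reads. Levels are given as CPM, counts scaled to a common library size. The dissections matched their labels. The 4 medulla markers, led by Slc6a5 of glycinergic neurons, summed to between 294.7 and 522.7 CPM in brainstem and to at most 0.502 CPM in hippocampus. The 4 hippocampal markers, led there by Neurod6, summed to between 465.8 and 674.6 CPM in hippocampus and to between 103.7 and 164.0 CPM in brainstem, where Zbtb20 was the highest of them.

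The promoters are shown because their letters were not used to choose the genes and several hold the same short motif. RefSeq promoters on GRCm38.p6, running from 250 bases before to 50 after the transcription start, were at hand for 7 of the 10 genes and were not used for Foxj1, Rsph1 and Rarres2. Only the 250 bases before the start were searched for motifs, on both strands. The core letters GTTGCC of the site that RFX factors are known to bind were present in 4 of these 7. Of all 27025 genes with a promoter, 11.8% held them. These 4 promoters are shown with up to 40 bases on each side of the match, 5′ to 3′ on the strand of the gene, and capitals mark the match (GTTGCC, or GGCAAC where it lies on the other strand).

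Ccdc153, chr9:44240485-44240570, plus strand: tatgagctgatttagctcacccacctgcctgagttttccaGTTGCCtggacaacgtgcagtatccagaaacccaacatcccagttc
Dynlrb2, chr8:116504924-116505009, plus strand: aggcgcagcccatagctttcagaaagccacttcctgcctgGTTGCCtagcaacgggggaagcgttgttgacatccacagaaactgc
Spag16, chr1:69826819-69826912, plus strand: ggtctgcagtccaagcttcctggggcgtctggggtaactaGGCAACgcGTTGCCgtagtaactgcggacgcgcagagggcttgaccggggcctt
Tekt1, chr11:72361883-72361957, minus strand: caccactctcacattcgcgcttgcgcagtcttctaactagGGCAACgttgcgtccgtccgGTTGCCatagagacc

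Spag16 and Tekt1 each held the core on both strands. The X-box, the longer site of the same factors, which can overlap the core, was searched on both strands and found in 1 of the 7 promoters (Spag16) and in 2.1% of all genes. The forkhead motif GTAAACA, again on both strands, was found in 1 of the 7 (Ak7) and in 3.5% of all genes. Of 47 further motile cilia genes with a promoter at hand, 14 held the core, 5 this form of the X-box and 0 the forkhead motif. A match describes the letters of these windows and was not read as a bound site.

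All 10 genes were detected in both regions, at low counts. Per kilobase of exon, Foxj1, the master transcription factor of motile ciliogenesis, was the highest of the 10 in brainstem at 5.23 ± 1.18 CPM per kb (SD, n = 23). Rsph1 of the radial spoke head came next at 2.27 ± 0.823, followed by the dynein light chain Dynlrb2 at 2.10 ± 1.22 and the membrane protein Tmem212 at 2.07 ± 0.913 CPM per kb. The coiled-coil protein Ccdc153 was the next in order. From Rsph1 to Ccdc153 each neighbour in this order lay within 1 SD of the next. Tekt1 of the doublet wall, Rarres2, which encodes the secreted protein chemerin, and the adenylate kinase Ak7 lay between 0.708 and 0.896 CPM per kb and were not separated by their spread. The central pair protein Spag16 at 0.218 ± 0.118 and the outer arm dynein heavy chain Dnah11 at 0.0844 ± 0.0455 CPM per kb were the lowest.

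In hippocampus Rsph1 headed the order at 1.84 ± 0.422 CPM per kb (SD, n = 24). Tmem212 at 1.60 ± 0.562, Foxj1 at 1.58 ± 0.321 and Dynlrb2 at 1.45 ± 0.539 CPM per kb followed within 1 SD of each other. The lower part of the order was the same as in brainstem, with Spag16 at 0.161 ± 0.0615 and Dnah11 at 0.0509 ± 0.0242 CPM per kb at the end. Dynlrb1, the broadly expressed relative of Dynlrb2, reached 102.3 ± 7.55 CPM per kb in brainstem and 87.5 ± 5.34 in hippocampus, so the ciliary paralog was a small part of the pair.

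Behind these levels stand few reads. Mean counts per library ran from 14.6 for Dynlrb2 to 171.7 for Foxj1 in brainstem, and from 10.8 for Dnah11 to 59.7 for Foxj1 in hippocampus. Counting error for a gene at these depths was between 7.62% and 26.1% of the mean in brainstem and between 12.9% and 30.7% in hippocampus. Within groups, the variance of the counts was between 2.49 (Rarres2) and 9.13 (Foxj1) times the mean in brainstem, against 1.05 (Tmem212) to 2.79 (Ak7) times in hippocampus. Tmem212 in hippocampus varied by 25.2% within groups, with 24.5% given by counting alone. Because strand-specific counting is not stated, 2 genes are uncertain. Rarres2 shares 892 exon bases (33.6%) with Lrrc61 and Dnah11 shares 642 (4.4%) with Cdca7l, each on the opposite strand.

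**Figure D1:**
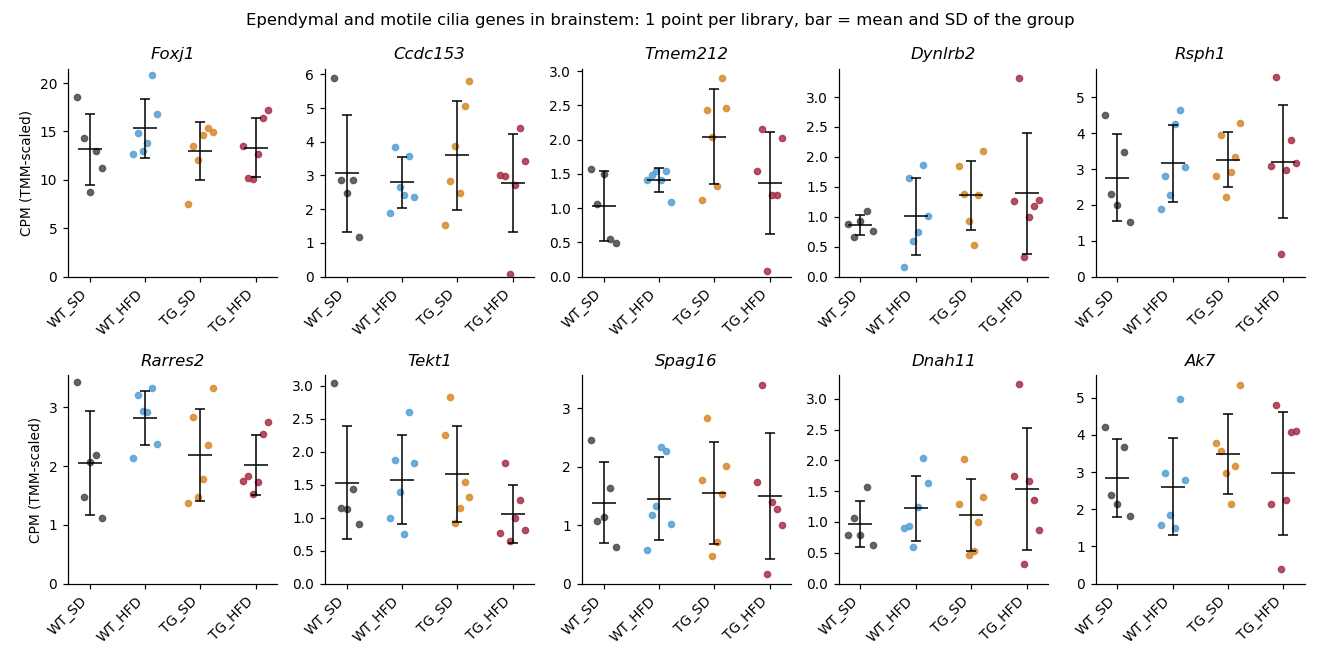
TMM-scaled CPM of each of the 10 genes (y axis, linear from 0) in the brainstem libraries by group (x axis); each point is 1 library, and the bar gives the mean and SD of the group. TG_HFD has 1 library near 0 for Ccdc153 and Tmem212 at 0.0800 CPM, while its Foxj1 level of 10.1 CPM is close to the next library of its group at 10.2 CPM.

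One brainstem library stood apart. TG_HFD replicate 4 held 1 read of Ccdc153, 1 of Tmem212, 2 of Spag16, 4 of Dynlrb2, 4 of Dnah11, 5 of Ak7, 8 of Rsph1 and 8 of Tekt1. Over the other 5 libraries of its group, Ccdc153 counts ran from 31 to 52 and Ak7 counts from 22 to 61. Foxj1, at 126 reads, and Rarres2, at 19, were also the lowest of the group in CPM, but close to the other libraries: Foxj1 was at 10.1 CPM against 10.2 to 17.2, and Rarres2 at 1.52 CPM against 1.73 to 2.76. The library held 13016465 counted reads, and its medulla markers summed to 464.0 CPM, within the range of the region. Its choroid plexus level was the lowest in brainstem at 25.5 summed CPM, with Ttr, the transthyretin gene of choroid plexus epithelium, at 6.96 CPM. TG_HFD replicate 6 was close to it, at 26.6 summed CPM and 7.10 CPM of Ttr. The mean log2 CPM of the 10 genes was 1.14 in replicate 6 and -0.53 in replicate 4. The part of choroid plexus in the low ciliary counts of replicate 4 was not tested. Results on brainstem TG_HFD are given with and without this library.

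The first comparison set the diets side by side within each genotype. In hippocampus, 10 of 10 genes had a lower mean CPM on HFD than on SD in WT mice and 10 of 10 in TG mice, whereas 50.9% and 51.5% of all 16787 genes were lower. The median log2 ratio of mean CPM, HFD over SD, was -0.36 in WT and -0.35 in TG, against medians near 0 over all genes (-0.0020 and -0.0031). These ratios are the values that were known when the genes were chosen, so nothing is read from their direction. No gene of the 10 had groups that did not overlap. Over all genes the groups did not overlap for 0.441% in WT and 0.0834% in TG. In bulk tissue, fewer ependymal cells and less RNA per cell cannot be told apart.

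Tmem212, a marker of ependymal cells, had the lowest ratio of the 10 in hippocampus of WT mice. Its counts were 15, 19, 23, 25, 26 and 29 in WT_SD and 6, 8, 10, 15, 16 and 17 in WT_HFD. Mean CPM was 1.59 ± 0.306 on SD and 0.870 ± 0.318 on HFD (SD, n = 6 each), a log2 ratio of -0.87, and 4 of 6 HFD libraries were below every SD library. In TG the counts ran from 16 to 19 on SD and from 5 to 21 on HFD, with means of 1.24 ± 0.109 and 0.893 ± 0.356 CPM. In CPM, 4 of 6 TG_HFD libraries were below every TG_SD library and 0 were above them.

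Ak7, an adenylate kinase of motile cilia, had 31 to 39 reads in WT_SD hippocampus with a median of 34.5. In WT_HFD its counts were 14, 14, 15, 18, 29 and 39, so 5 of 6 libraries were below every SD library in CPM and 1, replicate 6, was above them all. Mean CPM was 2.45 ± 0.287 on SD and 1.61 ± 0.847 on HFD. In TG, Ak7 had a median of 28.5 reads on SD and 29.5 on HFD, and mean CPM of 2.19 ± 0.609 and 2.04 ± 0.655, a log2 ratio of -0.10.

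Dnah11, which drives the beat as a dynein heavy chain, had counts of 6 to 22 in WT_SD and of 4 to 11 in WT_HFD, and a log2 ratio of mean CPM of -0.71. In TG the counts were 7 to 20 on SD and 3 to 19 on HFD, with a ratio of -0.43. Dynlrb2, the dynein light chain, showed the lowest ratio in TG hippocampus at -0.70: its counts had a median of 14.5 on SD and 8.5 on HFD, and 4 of 6 HFD libraries were below all SD libraries. Both genes rested on about 10 reads a library.

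Foxj1, the most deeply counted, had a median of 61.0 reads in WT_SD, 54.0 in WT_HFD, 64.0 in TG_SD and 49.5 in TG_HFD of hippocampus. Its ratio was -0.18 in WT and -0.36 in TG, where mean CPM was 4.50 ± 0.707 on SD and 3.51 ± 0.788 on HFD. The ranges overlapped in both genotypes. For Ccdc153 the ratio was -0.45 in WT and -0.10 in TG, and for Spag16 it was -0.18 and -0.52. The structural genes Rsph1 (-0.21 and -0.21) and Tekt1 (-0.35 and -0.34) had the same ratio in both genotypes to within 0.01, and chemerin's gene Rarres2 had -0.35 and -0.20.

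**Figure D2:**
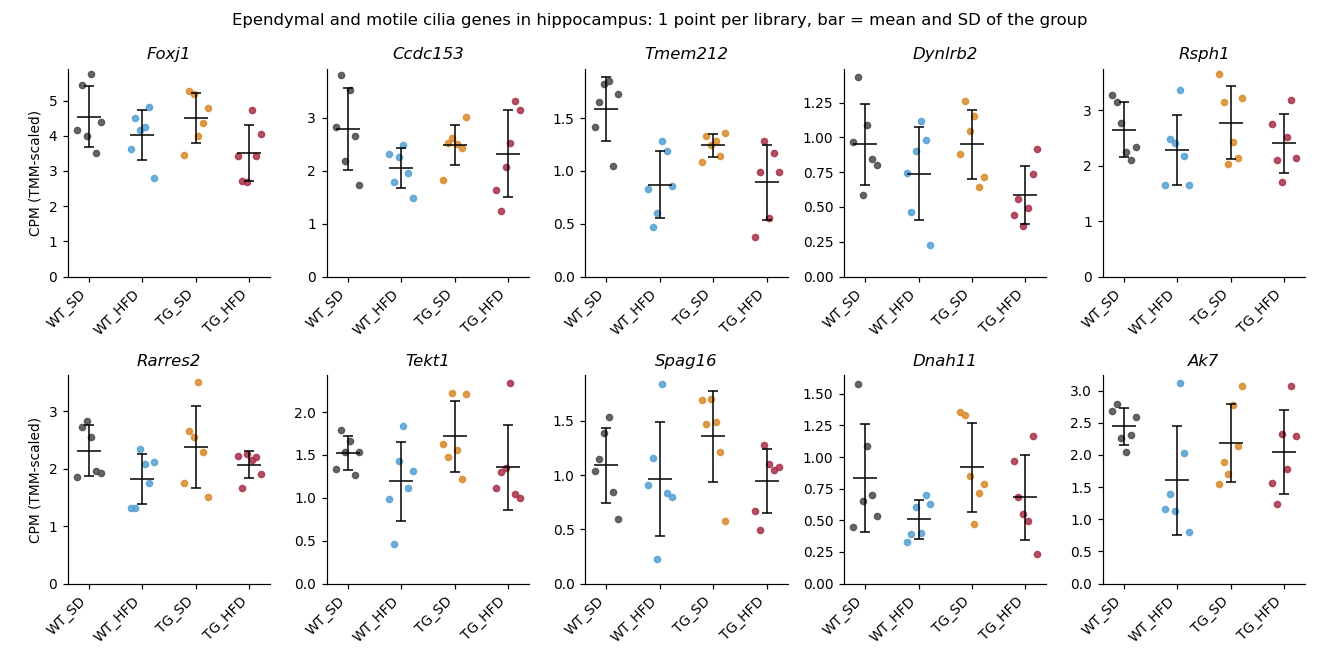
TMM-scaled CPM of each of the 10 genes (y axis, linear from 0) in the hippocampus libraries by group (x axis); each point is 1 library, and the bar gives the mean and SD of the group. The HFD groups have the lower mean for 10 of 10 genes in both genotypes, and their libraries overlap with those on SD for each gene.

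The brainstem diet values are likewise a description, and no direction is read from them. Mean CPM was higher on HFD for 8 of 10 genes in WT (median log2 ratio 0.21) and lower for 7 of 10 in TG (median -0.09), and 50.2% and 49.6% of all 17108 genes were lower on HFD. Without TG_HFD replicate 4 the TG genes divided into 5 lower and 5 higher, with a median of 0.05. Groups did not overlap for 0 of 10 genes in either genotype, beside 0.438% and 0.175% of all genes.

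The single genes in brainstem varied as widely. Tekt1 had the lowest ratio in TG at -0.67 (1.67 ± 0.728 CPM on SD, 1.05 ± 0.437 on HFD), which was -0.56 without TG_HFD replicate 4. Its counts were 10 to 35 on SD and 8 to 22 on HFD. Tmem212 was at 0.45 in WT and -0.58 in TG, and the TG ratio was -0.34 without that library. Dnah11 had a ratio of 0.34 in WT and 0.46 in TG, or 0.67 without it. Rarres2 was at 0.46 in WT, with 16 to 35 reads on SD and 26 to 41 on HFD, and at -0.12 in TG, or -0.05 without the library. The other ratios, of Foxj1, Ccdc153, Dynlrb2, Rsph1, Spag16 and Ak7, lay between -0.13 and 0.22 in WT and between -0.38 and 0.04 in TG. Without TG_HFD replicate 4 these TG ratios lay between -0.12 (Ccdc153) and 0.24 (Dynlrb2), and those of Rsph1 and Spag16 moved from -0.02 to 0.19 and from -0.06 to 0.18.

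Averaged over the 10 genes on the log2 CPM scale, hippocampus WT_SD libraries ran from 0.73 to 1.28 and WT_HFD libraries from 0.28 to 1.01. TG_SD libraries lay at 0.78 or above and TG_HFD libraries ran from 0.37 to 0.93. The mean on HFD minus that on SD was -0.42 in WT and -0.33 in TG, with a pooled SD between libraries of 0.26 and 0.16. In brainstem it was 0.16 in WT and -0.26 in TG, with SDs of 0.42 and 0.64, and the TG value was 0.06 without TG_HFD replicate 4.

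**Figure D3:**
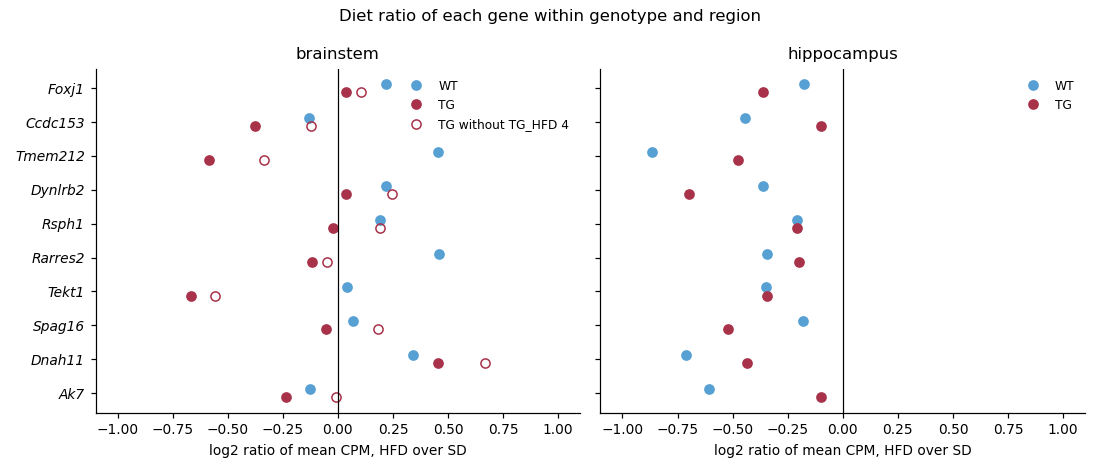
Log2 ratio of mean CPM, HFD over SD (x axis), for each gene (y axis) in WT and TG mice, in brainstem (left) and hippocampus (right); open circles leave out brainstem TG_HFD replicate 4. Every hippocampal ratio is below 0, from -0.87 to -0.10, and the brainstem ratios lie on both sides of 0.

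A model of genotype, diet and their interaction with surrogate variables, which stand for unlabelled sources of variation between libraries, was fitted across all genes in each region with edgeR. Calls required 0.05 or less for the p after Benjamini-Hochberg adjustment, together with a log2 fold change of 0.3 or more in size. The diet and interaction terms draw on the values that chose the genes, so their counts are a description and no p is given for them. For diet 0 of 10 genes passed in WT and in TG in both regions, beside 0% (WT) and 0.0175% (TG) of all genes in brainstem and 0.0238% (WT) and 0% (TG) in hippocampus. For the interaction 0 of 10 passed in either region, beside 0% of all genes in both. In these fits the median log2 fold change of the 10 genes was -0.31 in WT and -0.28 in TG in hippocampus, and 0.22 and -0.11 in brainstem.

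The genotype contrasts asked whether the genes differed between TG and WT mice on the same diet. None of the 10 was called in any of the 4 contrasts by edgeR's quasi-likelihood test. In brainstem, 0.117% of all genes were called for TG_SD against WT_SD (0.0935% higher, 0.0234% lower) and 0.0701% for TG_HFD against WT_HFD (0.0701% higher, 0% lower). In hippocampus the shares were 0.119% (0.0596% higher, 0.0596% lower) and 0.197% (0.0536% higher, 0.143% lower). In each contrast 1 of the 10 had an unadjusted p under 0.05, near the share of all genes (9.1% and 6.8% in brainstem on SD and HFD, 8.99% and 10.1% in hippocampus), and DESeq2 called 0 in each. Group means were known when the genes were chosen.

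On SD in brainstem, Tmem212 had the smallest p. Its counts in WT_SD were 7, 8, 13, 16 and 21, and those in TG_SD ran from 14 to 32 with a median of 25.0. The log2 fold change was 0.95 (SE 0.360, edgeR adjusted p = 0.388), and libraries of the groups overlapped. In hippocampus on SD the same gene was at -0.54 (SE 0.231, edgeR adjusted p = 0.496), the opposite sign, at 15 to 29 reads in WT_SD and 16 to 19 in TG_SD. Over the 10 genes, 8 were above 0 in brainstem on SD (median 0.26) and 8 below 0 in hippocampus (median -0.05). Of all genes, 50% were below 0 in brainstem and 50.7% in hippocampus. The 10 genes share their libraries, so these are not separate results and no direction is read from them.

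On HFD, Tekt1 in brainstem had the smallest p of the 10, at -0.67 in log2 units (SE 0.301, edgeR adjusted p = 0.686), with 9 to 32 reads in WT_HFD and 8 to 22 in TG_HFD. In hippocampus it was Ak7, at 0.79 (SE 0.324, edgeR adjusted p = 0.357). This value turned on WT_HFD replicate 6, the library with 39 reads. Without it Ak7 was at 1.29 with an edgeR adjusted p of 0.0341 (0.0341 to 0.656 over all alternatives), so that 1 of 10 genes was called. The WT_HFD levels were among the values known when the genes were chosen. The adjustment covers neither that choice nor the choice of this library, so the call is a description.

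Other motile cilia genes, fixed as a list of 56 by their role, were treated in the same way. After the filter on low counts 43 were tested in brainstem and 45 in hippocampus, and 0 were called in any genotype, diet or interaction contrast by edgeR. At an unadjusted p under 0.05 there were between 0 and 4 in each contrast, beside 5.48% to 10.1% of all genes, and DESeq2 called 0. In hippocampus 30 of 45 had a lower mean CPM on HFD in WT (median log2 ratio -0.03) and 32 of 45 in TG (median -0.09). In brainstem 26 of 43 were lower in WT (median -0.04) and 29 of 43 in TG (median -0.07). Between 49.6% and 51.5% of all genes were lower in these comparisons. In the fits, 25 of 43 were above 0 in brainstem WT (median log2 fold change 0.03) and 27 of 43 below 0 in brainstem TG. In hippocampus 30 of 45 were below 0 in WT and 29 of 45 in TG. No direction is read from these values.

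The regions were compared in 1 fit of all libraries, and the contrast of hippocampus with brainstem was taken within each group. The regions are in separate tables, so any other difference between the tables cannot be told apart from region. In WT_SD, 58.7% of the 17108 genes tested were called (28.3% higher and 30.4% lower in hippocampus), against 2 of the 10 ependymal genes. Foxj1 was lower in hippocampus. Its counts were 123, 161, 175, 189 and 190 in the 5 brainstem libraries and ran from 50 through a median of 61.0 to 90 in the 6 hippocampal ones, so the groups did not overlap. Mean CPM was 13.2 ± 3.65 and 4.55 ± 0.874, which the fit put at -1.45 in log2 units (SE 0.179, edgeR adjusted p = 6.78e-10). Foxj1 was called lower in hippocampus in the other groups too, at -1.87 in WT_HFD, -1.46 in TG_SD and -1.87 in TG_HFD. The fit behind these Foxj1 values did not pair libraries between the regions.

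Tmem212 was the other gene called in WT_SD, at 0.72 higher in hippocampus (SE 0.323, edgeR adjusted p = 0.0438). This call did not hold in several settings. In TG_SD the same gene was called in the opposite direction (-0.65, edgeR adjusted p = 0.0418), and a test of the difference between these groups was not run. Same-numbered libraries of the 2 regions deviated together in WT_SD. With the number as a block, Tmem212 was at 0.71 with an edgeR adjusted p of 0.0725, and with genotype, diet and number together as the block 0.90 and 0.0572, so its call was lost in both. The same call was lost without any 1 of 7 of the 11 WT_SD libraries, at edgeR adjusted p-values from 0.0569 to 0.150.

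The remaining 8 genes lay between -0.24 (Spag16) and 0.27 (Rarres2) in WT_SD, with SEs between 0.225 and 0.415. In the other groups more of the 10 were below 0: 10 of 10 in WT_HFD, 8 in TG_SD and 8 in TG_HFD. Of all genes, 52.1%, 51.6% and 51% were below 0. The levels on each diet were known when the genes were chosen, and these contrasts draw on them. Differences between the groups in these counts and calls are therefore a description, and nothing is read from them. Dnah11 was called lower in WT_HFD (-1.16, edgeR adjusted p = 0.00980) and in TG_HFD (-1.07, 0.00916). Rarres2 was called lower only in WT_HFD (-0.55, 0.0187) and Dynlrb2 only in TG_HFD (-1.17, 0.00544) of these 4 contrasts, without a test between groups. Same-numbered libraries deviated together in WT_HFD too. With the number as a block, Dnah11 (-1.01, edgeR adjusted p = 0.0340) and Rarres2 (-0.55, 0.0318) kept their calls there, as did Foxj1. With genotype, diet and number together as the block, 5 of 10 were called lower in WT_HFD, these 3 with Ak7 and Rsph1. In the fit of all libraries without a block, called genes were 60.7% of all in WT_HFD (29% higher, 31.7% lower). They were 60.3% in TG_SD (28.9% higher, 31.3% lower) and 58.5% in TG_HFD (28.2% higher, 30.3% lower). Without brainstem TG_HFD replicate 4 the count called in TG_HFD was 6 of 10 in place of 3, and Ak7, Rsph1 and Tmem212 joined. The counts from blocked fits and from the fit without that library have no share of all genes beside them. Nothing is read from those counts. The TG_SD and TG_HFD values are from fits without a block.

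**Figure D4:**
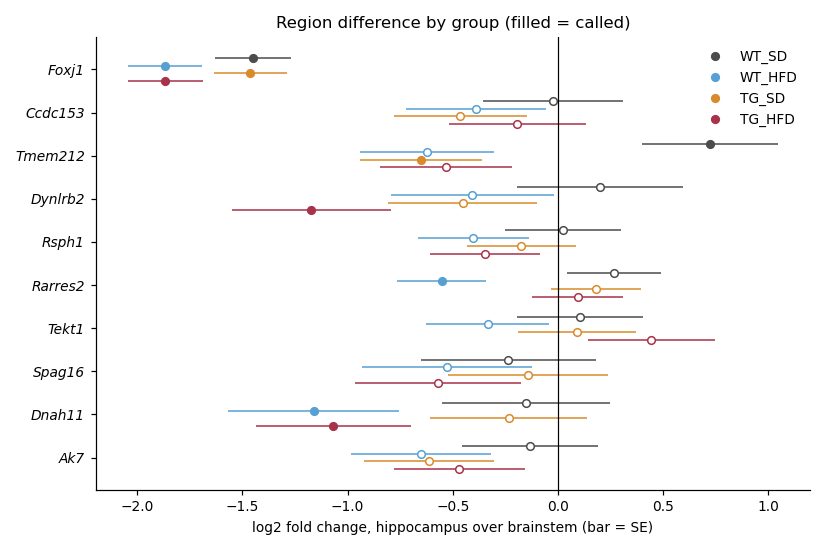
Log2 fold change of each gene between hippocampus and brainstem (x axis; above 0 is higher in hippocampus), by group in colour; bars give the SE and filled points are called. Foxj1 lies between -1.87 and -1.45 in the 4 groups, whereas Tmem212 is on both sides of 0.

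The longer motile cilia list held genes called in either direction between the regions. Of 47 genes tested in WT_SD, 21 were called higher and 9 lower in hippocampus. Of all genes, 28.3% were called higher and 30.4% lower, or 58.7% in either direction. The counts by role that follow rest on few genes, have these same shares beside them and are descriptions. All values of the list are from the fit without a block, though same-numbered libraries deviated together in WT_SD. Among regulators of multiciliated cells 4 of 5 were higher and 0 lower. RFX3, which binds the X-box, was the clearest: Rfx3 was at 13.8 ± 2.06 CPM in brainstem (SD, n = 5) and 91.1 ± 8.23 CPM in hippocampus (n = 6), or 2.80 in log2 units (SE 0.123, edgeR adjusted p = 6.75e-26). Gmnc, which directs progenitors to the multiciliated fate, was at 0.684 ± 0.327 and 3.35 ± 0.368 CPM (2.37, edgeR adjusted p = 3.86e-08). These regulators were on the other side from Foxj1, and bulk tissue does not show which cells expressed them.

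Of 14 dynein arm genes, 5 were higher and 6 lower in hippocampus. The light chain Dnal1 was at 48.9 ± 1.58 CPM in brainstem and 128.0 ± 5.31 in hippocampus (log2 fold change 1.45, edgeR adjusted p = 9.39e-27), and the heavy chain Dnah9 at 3.19 ± 0.976 and 17.7 ± 1.85 CPM (2.57, edgeR adjusted p = 3.00e-18). Of the assembly factors 3 of 5 were higher and 1 lower, the latter being Spag1 at 16.3 ± 2.23 and 6.25 ± 0.718 CPM (-1.31, edgeR adjusted p = 2.11e-16), while Dnaaf5 (-0.15, edgeR adjusted p = 0.378) was not called. Spoke and central pair genes were higher in 5 of 7 and lower in 0, with Rsph3a at 0.47 and Rsph9 at 1.33. Nexin link and ruler genes had 2 higher and 2 lower of 9, with Gas8 at -0.37 and Drc3 at -0.27, which missed the fold threshold. In the doublet wall group 2 of 7 were higher and 0 lower, and its most abundant genes, Efhc2 (0.07) and Cfap126 (-0.30), were not called. Rfx3 and Dnal1 are also expressed outside multiciliated cells.

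The 10 genes moved together from library to library in brainstem. After each group's mean was subtracted, the 45 pairwise correlations of log2 CPM over 23 libraries had a median of 0.60 and 45 were above 0, and without TG_HFD replicate 4 the median was 0.55 with 44 above 0. Rsph1 followed the mean of the others most closely (r = 0.94, or 0.87 without that library), then Ak7 (0.90 and 0.79) and Spag16 (0.85 and 0.76). Foxj1 followed it least (0.43 and 0.35). In hippocampus, over 24 libraries, the median was 0.18 with 38 of 45 above 0, and Dnah11 was the lowest at 0.07. These values are descriptions, and the libraries share depth and dissection.

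Choroid plexus level varied widely between brainstem dissections. The 11 choroid plexus genes, led by Ttr, all passed the filter in brainstem and 7 of 11 in hippocampus. They summed to between 25.5 and 3091 CPM in brainstem and between 41.8 and 320.8 CPM in hippocampus. Split at the widest gap, a choice made after seeing the data, brainstem libraries fell into 10 with a summed level of at most 67.7 CPM and 13 with at least 277.3 CPM, and both sets held libraries of each of the 4 groups, with 3 of 5 WT_SD, 2 of 6 WT_HFD, 2 of 6 TG_SD and 3 of 6 TG_HFD libraries in the lower set. The mean log2 CPM of the 10 genes ran from -0.53 through a median of 0.94 to 1.40 in the lower set and from 1.02 through 1.42 to 1.84 in the higher one. The part of choroid plexus in these values was not tested.

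The genes differed in how far they moved with that split. Spag16 had a median of 0.860 CPM in the lower set and 1.77 in the higher, Rsph1 2.26 and 3.81, and Ak7 2.20 and 3.68. Foxj1 had 12.7 and 13.8 CPM and Tmem212 1.37 and 1.55. Within the lower set, the correlation between the choroid plexus level and the mean of the 10 genes was r = 0.30 (Spearman's rho 0.25, n = 10, permutation p = 0.426 and 0.492). Within the higher set it was r = 0.56 (rho 0.54, n = 13, permutation p = 0.0493 and 0.0620), and r = 0.68 without the 2 libraries farthest from the median. Among 7 such relations the adjusted values were 0.746 and 0.688 in the lower set and 0.345 and 0.434 in the higher, so none held after adjustment. These values leave out the difference between the sets, and group means were not subtracted within them. The relation over all brainstem libraries was not tested. In hippocampus, over all libraries and with group means subtracted, r was -0.09 (rho -0.08, n = 24, permutation p = 0.672 and 0.713), or -0.10 without the farthest 2. With the choroid plexus level as a covariate in place of the surrogate variables, also chosen after seeing the data, the brainstem contrasts of genotype, diet and interaction called 0 of 10 genes, as before.

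Meningeal and astrocyte markers were set against the 10 genes over all libraries of each region, and none of these relations held after adjustment. For the 8 meningeal markers, led by Dcn and summing to between 65.1 and 107.2 CPM in brainstem, r was 0.05 (rho 0.08, permutation p = 0.822 and 0.723), or -0.16 without the farthest 2. In hippocampus, where they summed to between 74.8 and 134.9 CPM, r was -0.20 (rho -0.22, permutation p = 0.344 and 0.290). For the 5 astrocyte markers, led by Aqp4 in brainstem and Slc1a3 in hippocampus, r was -0.07 (rho -0.31, permutation p = 0.746 and 0.156) and 0.20 (rho 0.21, permutation p = 0.357 and 0.320). Adjusted values were at least 0.547 for these 4 relations, and group means were subtracted.

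**Figure D5:**
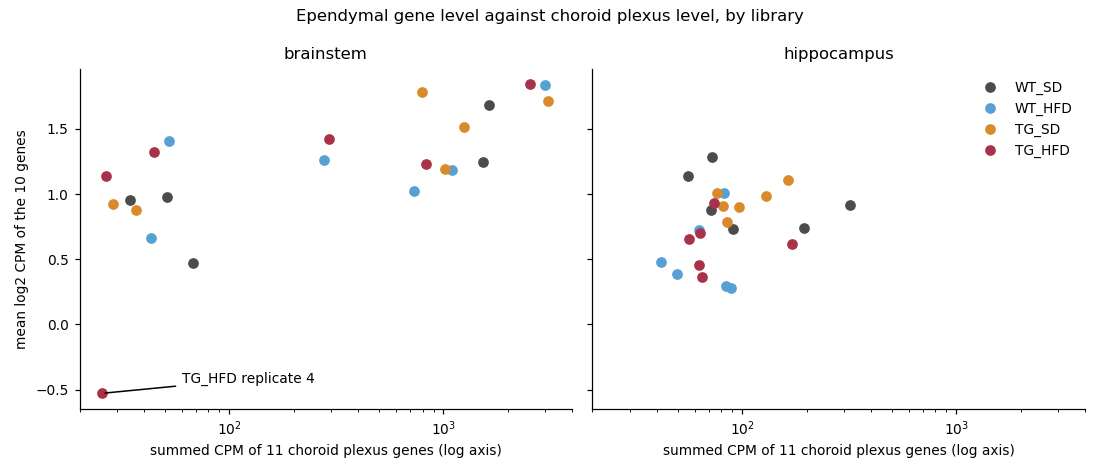
Mean log2 CPM of the 10 genes (y axis) against the summed CPM of 11 choroid plexus genes (x axis, log scale), 1 point per library, coloured by group, in brainstem (left) and hippocampus (right). Brainstem libraries fall on either side of a gap between 67.7 and 277.3 CPM, and TG_HFD replicate 4 is the lowest point at -0.53.

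The genes whose library-to-library pattern was most like the mean of the 10 were ranked by the lower of the r in brainstem and in hippocampus, over 16176 genes outside the 10 with a mean count of at least 10 in both regions. The 8 highest were Cfap70 (0.66 in brainstem and 0.66 in hippocampus), Ntn4 (0.64 and 0.68), Fam216b (0.90 and 0.64), Cfap65 (0.64 and 0.63), Stoml3 (0.85 and 0.61), Iqca (0.80 and 0.60), Gm19935 (0.60 and 0.66) and Cfap206 (0.86 and 0.59). Cfap70, Cfap65 and Cfap206 encode proteins associated with cilia and flagella, and Ntn4 encodes a secreted netrin. Without brainstem TG_HFD replicate 4 the brainstem r of these 8 lay between 0.48 (Ntn4) and 0.81 (Cfap206). None of the 8 was in the motile cilia list, of which 41 genes could be ranked. The median r of those 41 was 0.53 in brainstem and 0.19 in hippocampus, against -0.01 and 0.00 over all genes, and 31 of 41 (75.6%) were above 0 in both regions, beside 22.3% of all genes.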

How the data were processed

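RNA was poly(A)-selected and sequenced single-end by the study. The authors aligned the reads with STAR 2.7.9a to mouse GRCm39 with the transgene's sequence added, and deposited raw counts of reads per gene, in 1 table per region. How reads were assigned to genes, and whether by strand, is not given in the sources used here. Symbols and exon lengths came from the GENCODE annotation of GRCm38, another build, by Ensembl identifier, so the only coordinates given are those of RefSeq promoters on GRCm38.p6. The 10 genes, the gene lists and the tests were chosen with earlier results of these data known.

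Genes averaging 10 or more reads were tested with edgeR 4.0.16 (quasi-likelihood, TMM, R 4.3.3), in place of the study's higher minimum, since the 10 genes are low. Each region's 4 groups were fitted together with 4 surrogate variables (sva 3.50.0), and the regions together without any. Log2 CPM used a prior count of 2. Alternatives included DESeq2 1.42.0 and other filters. Fits were tested on simulated data. Counting error is that of whole reads. Named were the 10 genes, from the cilia list those of smallest adjusted p and of highest count by role, the 8 genes most alike, the highest gene of each marker list and Dynlrb1. The level of the transgene is not reported here. Correlations used 100000 permutations. Same-numbered libraries of the 2 regions in WT_SD deviated together over 10608 genes (r between 0.113 and 0.671 in 4 of 4 pairs). Those in WT_HFD did too (0.109 to 0.460 in 4 of 4), a pairing read from the data. Blocked values are given for Tmem212 in WT_SD and for Dnah11 and Rarres2 in WT_HFD. The other region values, among them those of Foxj1 and of the cilia list, are from the fit without a block. Their p-values leave the pairing out. In TG_SD r ran from 0.053 to 0.186, above 0.1 in 3 of 4 pairs. In TG_HFD it ran from -0.121 to 0.268, above 0.1 in 3 of 5 pairs. The region results of TG_SD and TG_HFD are given without a block. Replicates differed by more than sampling noise.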

Additional observations from a re-analysis of the deposited data

Results flagged for a closer look

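In groups of 5 or 6 libraries, a library was flagged where its gap to the nearest other library took up more of the group's range than Dixon's limit at 95%. Over the 10 genes and their mean, 88 groups were tested and 9 were flagged, and chance flags about 1 group in 20. Of the 9, 5 were the same library, brainstem TG_HFD replicate 4, the lowest of its group. Its ratio of gap to range was 0.844 for Ccdc153, 0.761 for Tmem212, 0.697 for Rsph1, 0.645 for Ak7 and 0.703 for the mean of the 10 genes, where it lay at -0.53 with the next library at 1.14 on the log2 CPM scale. The genes are not independent, since they share the library.

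The other 4 were single genes. Foxj1 was low in brainstem TG_SD replicate 1 (ratio 0.658, 93 reads), and Tmem212 was low in brainstem WT_HFD replicate 8 (0.723, 16 reads). In hippocampus, Tekt1 was high in TG_HFD replicate 6 (0.657, 38 reads) and Spag16 was low in TG_SD replicate 8 (0.678, 8 reads).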

How the results depend on the processing

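At about 10 to 60 reads a library in hippocampus, SD and HFD libraries overlapped for each of the 10 genes in both genotypes. Over all genes the groups did not overlap for 0.441% in WT and 0.0834% in TG. The genotype, diet and interaction counts of the 10 genes and of the cilia list stayed at 0 under another scaling, DESeq2, other filters, the adjusted p alone and the replicate block (a minimum mean count of 50 kept only Foxj1 of the 10), except that with 1 surrogate variable 1 cilia gene was called for TG_HFD against WT_HFD in hippocampus. Leaving out each library in turn gave, as a description, 0 to 1 of the 10 genes for TG_HFD against WT_HFD and for WT_HFD against WT_SD in hippocampus, with 1 only without WT_HFD replicate 6. Between the regions in WT_SD, a minimum mean count of 50 left 1 of the 10 and 14 of the cilia list called, because fewer genes were tested. The replicate block called 1 of the 10, as did the block by genotype, diet and number, added after seeing the data, and leaving out each WT_SD library gave 1 to 2. In WT_HFD the added block by genotype, diet and number called 5 of the 10 in place of 3. In TG_HFD, leaving out brainstem replicate 4, also added, gave 6 in place of 3. The shares of all genes called in these added fits are not set beside the counts, and nothing is read from them. The gene that lost its call in WT_SD was Tmem212 in each of these block and left-out fits that called 1. Of the 8 most alike genes, 4 were among the 8 highest without subtracting group means and 5 by Spearman's rho, in either region. The cause of these changes was not tested.

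Within a region, libraries that share a number but not a group did not all deviate together (r above 0.1 in 10 of 26 pairs in brainstem, median 0.011, and in 19 of 36 in hippocampus, median 0.123), so the number was not taken as a pairing there, and the replicate block moved brainstem TG_SD against WT_SD from 20 to 4 genes called of all, and TG_HFD against WT_HFD from 12 to 5. It changed no call of the 10 genes within a region.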
